A study of Mus musculus with 6 samples.

Results

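Tnf and 9 other genes for secreted cytokines (Il1b, Il1rn, Il6, Il10, Il18, Osm, Lif, Csf1 and Tgfb1) were followed through RNA sequencing of RAW264.7 cells, a mouse monocyte/macrophage cell line of wild-type genotype in which RANKL can induce osteoclast formation. The genes were taken by name: 10 of the 41921 genes in the deposited count table carry these symbols, and 6 of the 10 had enough counts to be tested. The groups were 3 libraries of cells given RANKL and 3 libraries from the albiflorin condition, albiflorin being a monoterpene glycoside of peony root. The labels describe all 6 libraries as osteoclast differentiation and give 50 ng/mL RANKL, added to cells kept for 3 days after confluence, in the protocol of every sample. They give neither the dose of albiflorin, nor its duration, nor the time at which RNA was taken. That protocol text is shared, and no label of an albiflorin library says by itself that its cells also received RANKL, so an albiflorin difference below is a difference from the RANKL libraries as labelled. No group labelled as untreated was analysed here.

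TNF and IL-1beta are the alarm cytokines of macrophages: they bind receptors on the same and on neighbouring cells and turn on NF-kB and MAP kinase signalling, and the IL-1 receptor antagonist encoded by Il1rn occupies the IL-1 receptor without signalling. IL-6, oncostatin M and LIF signal through receptors that share the chain gp130, IL-10 restrains macrophage activation, IL-18 is made as a precursor that caspase-1 cleaves, CSF1 keeps macrophages and osteoclast precursors alive, and TGF-beta1 is stored in a latent form in the matrix. In bone, TNF, IL-1 and CSF1 are known to act with RANKL on osteoclast precursors. Many mRNAs of this family are short-lived because AU-rich elements in their 3′ untranslated regions are bound by decay proteins such as tristetraprolin, the product of Zfp36.

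The libraries held 13673284 to 15489482 counted reads. In 1 library 3 reads, taken as the lower limit of detection, correspond to 0.191 to 0.223 CPM, the counts scaled to a common depth with edgeR's TMM factors. The macrophage list was abundant in sum (3995 to 4293 CPM in RANKL and 4135 to 4309 CPM in albiflorin libraries), led by Csf1r, Cd68 and Cd14. Its Mrc1 stood at only 1.33 and 1.17 CPM with RANKL and albiflorin. Of 8 macrophage genes tested, 2 were higher (25%) and 1 lower (12.5%) with albiflorin, against 12.4% and 11.4% of all tested genes. The lists for T and B cells (at most 3.00 CPM), stromal cells and osteoblasts (at most 4.40 CPM) and epithelium and endothelium (at most 0.877 CPM) were far lower in sum. Runx2 of the stromal list reached 4.01 CPM in RANKL replicate 2. These single genes were named after their values were seen. The osteoclast list was mixed. Of its 10 genes 7 were tested, 1 higher and 1 lower with albiflorin (14.3% each, against 12.4% and 11.4% of all tested genes). Calcr, for the calcitonin receptor, had 0 counts throughout and Ctsk, for cathepsin K, 5 to 14 counts. In contrast Nfatc1, the osteoclast transcription factor gene, stood at 143 ± 7.45 and 122 ± 5.50 CPM with RANKL and albiflorin (called lower, -0.22, edgeR adjusted p = 0.0180). Acp5, for tartrate-resistant acid phosphatase, stood at 22.9 ± 2.11 and 27.95 ± 1.59 CPM (called higher, 0.29, 0.0371). Dcstamp (18.3 CPM with RANKL), Mmp9 (7.65), Atp6v0d2 (6.03), Itgb3 (2.66) and Ocstamp (0.568) were tested and not called. Oscar had 0 to 3 counts per library. Across 13158 genes tested, 1631 (12.4%) were higher and 1496 (11.4%) lower with albiflorin at an adjusted p under 0.05 in edgeR's quasi-likelihood test, 23.8% in all. Nothing in the labels says that replicates were separate cultures, so the p-values below rest on the spread among these libraries alone, and that spread may be technical.

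AU-rich sites are shown first because decay proteins encoded by genes described further down bind such elements. In GENCODE M21 the 3′ untranslated region of Tnf (transcript Tnf-201, 764 bases) holds 8 copies of ATTTA and 5 of the nonamer TTATTTATT, with overlapping matches counted separately. Of 2997 mouse 3′ untranslated regions within 25% of that length, 4.20% hold the nonamer and 0.334% hold at least as many ATTTA. Among the members the nonamer was found elsewhere only in Lif (2 copies in 3180 bases, with 7 ATTTA). Of 2416 untranslated regions within 25% of Lif's length, 14.2% hold the nonamer and 38.4% hold at least as many ATTTA. The 30 bases with the most ATTTA, read on the mRNA strand and with each ATTTA in capitals, lie on chr17:35199679-35199708 (minus strand) for Tnf and on chr11:4272414-4272443 (plus strand) for Lif, both in GRCm38.
Tnf AU-rich site: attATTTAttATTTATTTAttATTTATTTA
Lif AU-rich site: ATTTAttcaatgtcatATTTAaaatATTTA
The Tnf run holds 5 ATTTA, a single copy and 2 overlapping pairs, separated by TT. The Lif run holds 3 spaced ones and does not hold the nonamer. Il6, Il10 and Osm had 6 ATTTA each (Il6 in 427 bases, at least as many being found in 0.463% of untranslated regions within 25% of its length), Il1b and Csf1 had 4 each, Il18 (123 bases) and Tgfb1 (135 bases) had 1 each, and Il1rn had 0 in 1864 bases. Of all 20741 mouse 3′ untranslated regions read, 7.12% held the nonamer.

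The promoters of Tnf and Il18, the members called higher below, are shown as the 250 bases before the start site in the RefSeq table (GRCm38.p6). Capitals mark matches on either strand to GGG, any 5 bases and CC (the kappaB form), TGANTCA (AP-1), TGACGTCA (CRE) or TATAAA.
Tnf, chr17:35202008-35202257, minus strand: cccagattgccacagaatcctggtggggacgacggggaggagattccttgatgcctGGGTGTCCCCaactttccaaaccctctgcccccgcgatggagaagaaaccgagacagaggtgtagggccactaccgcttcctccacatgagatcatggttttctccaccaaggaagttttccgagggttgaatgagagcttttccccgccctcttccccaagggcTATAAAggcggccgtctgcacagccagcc
Il18, chr9:50554450-50554699, plus strand: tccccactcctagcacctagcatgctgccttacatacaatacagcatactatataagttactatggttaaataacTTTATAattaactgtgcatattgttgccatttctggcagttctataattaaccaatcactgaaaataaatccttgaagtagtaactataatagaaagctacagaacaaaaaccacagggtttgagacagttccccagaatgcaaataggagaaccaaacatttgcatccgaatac
In the Tnf window the kappaB form matched once, starting at position -194 from the start site, and TATAAA matched at -29. The Il18 window held a TATAAA match on the reverse strand at -175 and none of the other letters, and no matches overlapped in either window. Over 32851 such windows, 45.8% held the kappaB form, 12.4% TATAAA, 6.75% the AP-1 form and 1.55% the CRE form. A match describes letters only.

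The 10 genes spanned the whole range from abundant to undetected. Levels of the 10 genes were ordered on the authors' FPKM, which is per gene length. In RANKL libraries Tgfb1 was first (50.6 ± 2.13 FPKM, mean ± SD, n = 3), followed by Tnf (26.8 ± 4.73), Il18 (17.9 ± 1.51), Il1rn (3.18 ± 0.435), Osm (2.10 ± 0.225), Csf1 (0.377 ± 0.0739), Il1b (0.0951 ± 0.0227) and Lif (0.0105 ± 0.00913), with Il6 and Il10 at 0. Neighbours in this order did not overlap between libraries as far down as Lif, which had 1 library at 0 like Il6 and Il10. In albiflorin libraries the first 7 places were the same, and Il1b, Il10 and Lif, all at or under 0.240 FPKM, could not be ordered beyond their spread. Ordering by CPM divided by the listed gene length gave the same ranks. That is no separate check, because FPKM uses the same counts and lengths.

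**Figure D1:**
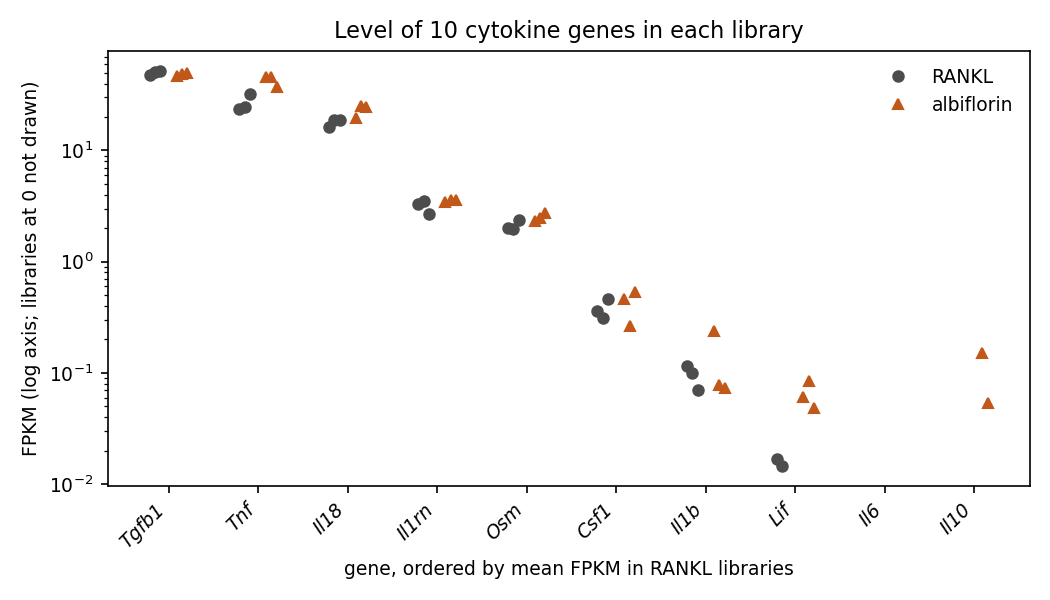
FPKM of each cytokine gene (log axis) in the 3 RANKL (grey circles) and 3 albiflorin libraries (orange triangles), ordered by the RANKL mean. Libraries at 0 are not drawn: all 6 for Il6, all RANKL libraries and 1 albiflorin library for Il10, and 1 RANKL library for Lif. Tgfb1, Tnf and Il18 stand above 16 FPKM in every library, and Il1b, Lif, Il6 and Il10 lie at or under 0.240 FPKM.

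Albiflorin libraries held more Tnf mRNA. Tnf encodes the membrane-bound precursor of TNF and lies, in the deposited coordinates, on chromosome 17 from 36693785 to 36696411 (minus strand), listed as protein-coding with 1639 exonic bases. Its counts were 532, 630 and 787 in the RANKL libraries and 1150, 1012 and 875 in the albiflorin libraries. In CPM these were 39.1, 40.1 and 53.1 against 75.8, 75.2 and 61.5. Every albiflorin library was above every RANKL library, the nearest being albiflorin replicate 3 and RANKL replicate 3. The mean rose from 44.1 ± 7.81 to 70.9 ± 8.09 CPM, a log2 fold change of 0.68 (SE 0.107, edgeR adjusted p = 0.000589). Counting alone would give an SD of 1.73 and 2.23 CPM, so the spread between libraries sets the precision. In bulk RNA, more mRNA per cell and more cells that express the gene cannot be told apart.

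Tnf was the only member whose call held throughout. It was called under all 16 alternatives, with log2 fold changes of 0.48 to 0.84 and an adjusted p of at most 0.0219. The smallest changes came from removing the trend of each library with gene length (0.48, adjusted p = 0.00318 in edgeR with the listed length, where 7.18% of genes were called higher and 7.96% lower, and 0.51, adjusted p = 0.00389 with mRNA length). In the ranking of tested protein-coding genes by mean FPKM, Tnf stood at percentile 79.0 in RANKL and 87.7 in albiflorin libraries.

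Il18, the gene for the caspase-1-cleaved cytokine IL-18, was also called higher, at a level close to the threshold. Its counts were 158, 210 and 201 with RANKL and 213, 244 and 252 with albiflorin, or 11.6, 13.4 and 13.6 against 14.1, 18.1 and 17.7 CPM. The lowest albiflorin library lay just above the highest RANKL library. The mean went from 12.9 ± 1.09 to 16.6 ± 2.25 CPM (log2 fold change 0.37, SE 0.123, edgeR adjusted p = 0.0400). The call held in 5 of 16 alternatives and was lost with DESeq2 (adjusted p = 0.0513) and limma-voom (0.0546). Of the 6 leave-one-out fits it was kept only without albiflorin replicate 1, and leaving out each other library in turn gave adjusted p-values of 0.0587 to 0.150 in edgeR. With the listed-length trend removed the log2 fold change was -0.0096 (edgeR adjusted p = 0.975), and with the mRNA-length trend removed 0.0069 (0.985). Il18 has the shortest listed length of the 10 genes, 714 bases.

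The other 4 tested members were not called. Il1rn, the IL-1 receptor antagonist gene, had 18.4, 19.6 and 14.98 CPM with RANKL and 19.3, 19.9 and 20.0 CPM with albiflorin, and the groups overlapped (log2 fold change 0.16, SE 0.110, edgeR adjusted p = 0.310). Osm, the oncostatin M gene, had 4.55, 4.46 and 5.40 against 5.28, 5.65 and 6.26 CPM and also overlapped (0.25, SE 0.177, adjusted p = 0.327). Csf1, the gene for the macrophage growth factor, had only 19 to 40 reads per library, so its change was poorly determined (0.16, SE 0.303, adjusted p = 0.752). Tgfb1 was the best measured of all, with 3298 to 4035 reads per library. Its mean was 255 ± 10.8 CPM in the RANKL libraries, 244 ± 7.51 CPM in the others (log2 fold change -0.06, SE 0.0600, edgeR adjusted p = 0.498).

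In all, 2 of the 6 tested members were called higher and 0 lower, against 12.4% and 11.4% of all tested genes. Their median log2 fold change was 0.21, against 0.0056 over all tested genes. The libraries of the 2 groups did not overlap for Tnf and Il18, 2 of the 6, while this was true of 40.1% of all tested genes.

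**Figure D2:**
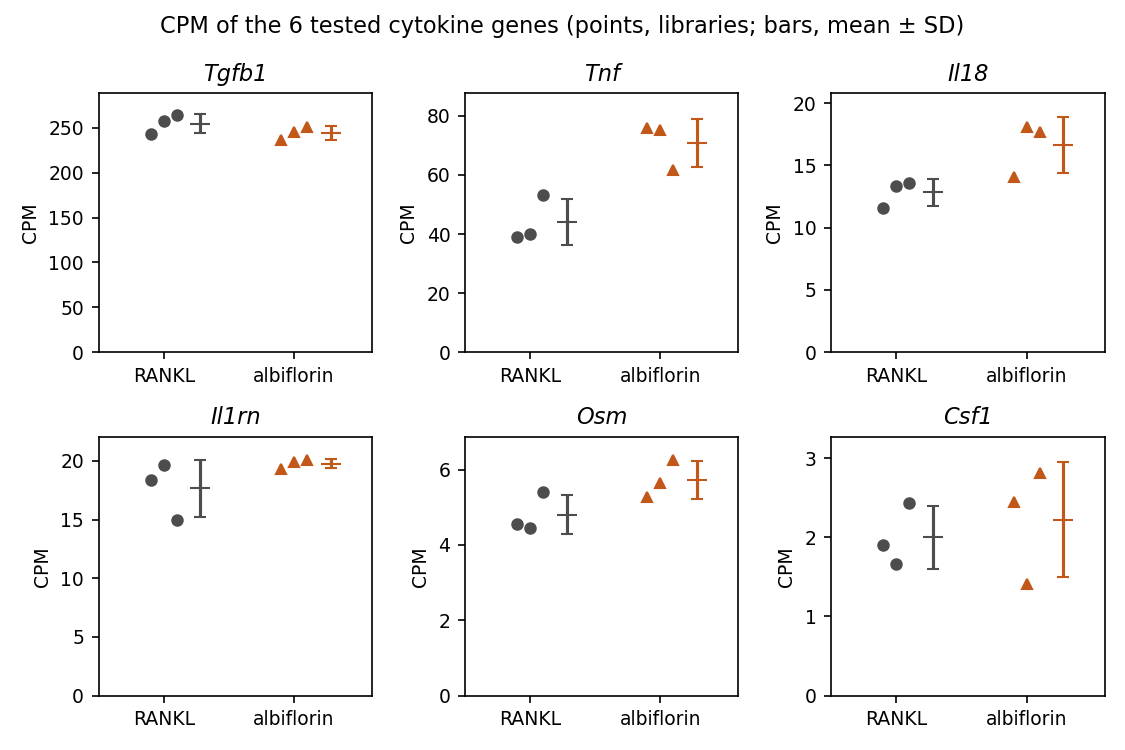
CPM of the 6 tested cytokine genes, each panel with its own axis from 0. Points are libraries (grey circles RANKL, orange triangles albiflorin) and the bars beside them are mean ± SD (n = 3). Only for Tnf and Il18 do all albiflorin libraries lie above all RANKL libraries.

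**Figure D3:**
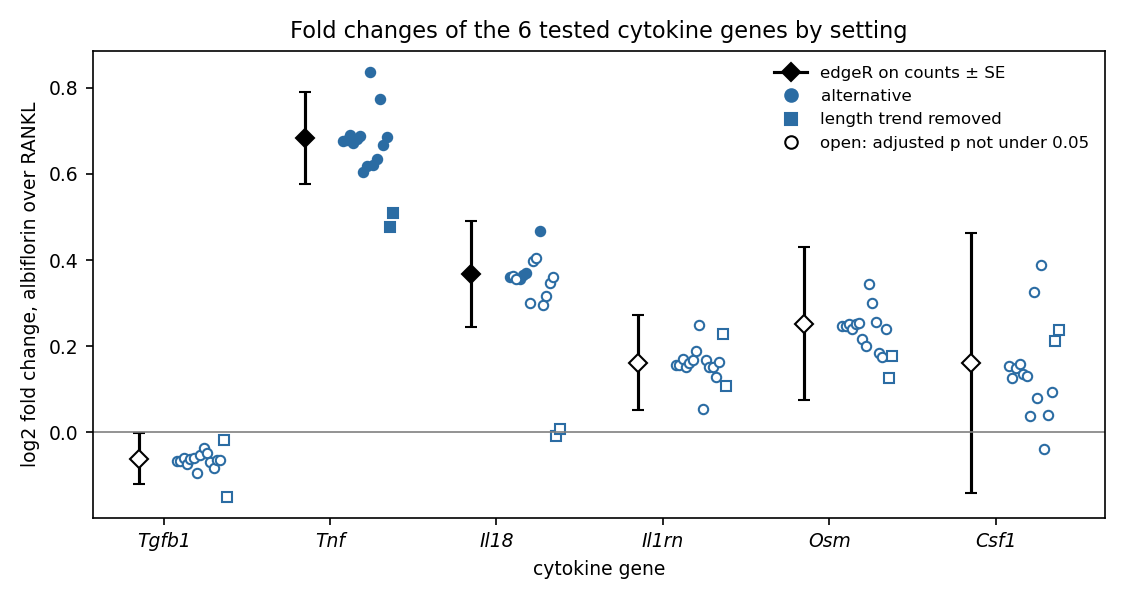
Log2 fold change, albiflorin over RANKL, of the 6 tested cytokine genes from edgeR on the counts (black diamonds, ± SE) and under each alternative (blue circles, or squares where a length trend was removed). Open symbols did not reach an adjusted p under 0.05. Tnf is filled throughout (0.48 to 0.84), Il18 is near 0 in both squares, and Il1rn, Osm, Csf1 and Tgfb1 are open throughout.

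Il1b, Lif, Il10 and Il6 were too low to be tested. The pro-inflammatory cytokine gene Il1b had 3, 3 and 2 counts with RANKL and 7, 2 and 2 with albiflorin. The ratio of the summed CPM was 1.417 (exact 95% interval 0.519 to 4.06, counting error only). Lif, for leukaemia inhibitory factor, had 1, 1 and 0 counts with RANKL and 4, 5 and 3 with albiflorin. All albiflorin libraries were above all RANKL libraries, at 2 summed reads against 12 (ratio 6.18, exact 95% interval 1.38 to 56.9, counting error only). The groups likewise did not overlap for 40.1% of all tested genes. Without a filter on low counts the log2 fold change of Lif was 2.41, and this did not pass (edgeR adjusted p = 0.206).

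Il10, the anti-inflammatory cytokine gene, had 0 counts in the RANKL libraries and 3, 0 and 1 with albiflorin. No filter gave an adjusted p of 0.312 in edgeR. Il6 had 0 counts in all 6 libraries. A count of 0 over the 3 libraries of a group allows up to 0.068 CPM with RANKL and 0.070 CPM with albiflorin (3 reads over the group); the exact two-sided 95% limits are 0.0836 and 0.0861 CPM. Reads of a gene can lie on a second, unnamed entry of the table, as for the integrin gene Itgam, named here after its values were seen: its named entry had 0 or 1 count and an unnamed one with the same protein description 1706 to 2733. For each of the 10 cytokine genes 0 other entries carried its protein description. Il1b overlaps 1 other annotated gene, the antisense transcript Il1bos, with 31 counts in all libraries together, and the sources used here do not say whether reads were counted by strand. None of the other 9 members overlapped another entry.

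Tnf was larger relative to Tgfb1 in each albiflorin library than in any RANKL library. The ratio of Tnf to Tgfb1, on FPKM, was 0.492, 0.478 and 0.615 in the RANKL libraries and 0.983, 0.939 and 0.750 in the albiflorin libraries. The mean was 0.528 ± 0.0754 and 0.891 ± 0.124. The exact two-sided permutation test gave p = 0.1, the smallest that 3 against 3 libraries allow (0.3 adjusted over the 3 ratios tested). Tnf made up 26.4 ± 2.72% of the summed FPKM of the 10 genes with RANKL and 35.4 ± 3.67% with albiflorin, and Tgfb1 50.2 ± 1.88% and 39.9 ± 1.74%. Shares of a library add up to a fixed total, so the share of Tgfb1 falls when Tnf rises. Tgfb1 itself stood at 50.6 FPKM with RANKL and 48.3 FPKM with albiflorin and was not called. The ratio of Tnf to Il1rn overlapped between groups (6.91 to 12 against 10.4 to 13.3; exact permutation p = 0.2, adjusted 0.3). Il1rn exceeded Il1b, whose product it opposes, by 14.4 to 49.1 times per length in single libraries, a ratio limited by 2 to 7 Il1b reads.

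Receptor genes for IL-6 and 1 of the 2 TNF receptor genes were lower with albiflorin. Of 17 receptor genes 12 were tested; 3 were lower (25%) and 1 higher (8.33%, against 11.4% and 12.4% of all tested genes), with a median log2 fold change of -0.10 (3 lower and 0 higher with either length trend removed). The lower ones were both chains of the IL-6 receptor and the second TNF receptor. Il6st encodes gp130, the signalling chain shared by the IL-6, LIF and oncostatin M receptors, and had 158, 141 and 125 CPM with RANKL and 101, 72.2 and 97.7 CPM with albiflorin. The groups did not overlap, and the fall was 0.64 on the log2 scale (-0.64, SE 0.106, edgeR adjusted p = 0.000728). Il6ra, the IL-6-binding chain, had 188, 203 and 190 against 132, 143 and 163 CPM (-0.41, SE 0.0730, adjusted p = 0.00128). Its groups were separate as well.

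Tnfrsf1b encodes TNF receptor 2, and its level was 92.7, 94.7 and 92.2 CPM with RANKL and 69.9, 70.9 and 82.3 CPM with albiflorin (-0.33, SE 0.0703, edgeR adjusted p = 0.00389). These 3 receptor genes were called lower in all 16 alternatives. The other TNF receptor gene, Tnfrsf1a, stayed at 88.3 ± 5.19 and 90.4 ± 3.68 CPM and was not called (0.03, SE 0.0657, adjusted p = 0.758). Il10rb, a shared chain of the IL-10 receptor, was called higher (33.6 ± 2.62 to 40.3 ± 3.19 CPM, 0.26, SE 0.0873, adjusted p = 0.0393), but in 8 of 16 alternatives and with neither length trend removed. Leaving out RANKL replicate 1 or 3, or albiflorin replicate 1 or 2, ended that call (edgeR adjusted p = 0.0974 to 0.170). Its partner Il10ra was not called (-0.04, SE 0.0670, adjusted p = 0.734).

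The receptors of CSF1 and TGF-beta lay below the RANKL libraries in every albiflorin library without passing the threshold. The groups likewise did not overlap for 40.1% of all tested genes. Csf1r, for the CSF1 receptor, was at 1944 ± 47.9 CPM with RANKL and 1730 ± 81.6 with albiflorin (-0.17, SE 0.0636, edgeR adjusted p = 0.0660). Tgfbr2 (-0.17, adjusted p = 0.0545) and Tgfbr1 (-0.17, adjusted p = 0.0780) were similar in size. Over the 16 alternatives the changes ran from -0.21 to -0.055 for Csf1r, -0.23 to -0.14 for Tgfbr2 and -0.20 to -0.0065 for Tgfbr1. Csf1r was called in 4 and Tgfbr2 in 5 of 16 alternatives, each of them without albiflorin replicate 3 (Csf1r -0.21, edgeR adjusted p = 0.0128; Tgfbr2 -0.23, 0.0134), and Tgfbr1 in 0. For the IL-1 and IL-18 receptors, the accessory chains Il1rap (-0.03, adjusted p = 0.905) and Il18rap (-0.03, adjusted p = 0.846) were expressed at 13.06 and 30.01 CPM with RANKL, while the ligand-binding chains Il1r1, Il1r2 and Il18r1 had 0 to 3 counts per library, with 0 other entries of the table carrying their protein descriptions. Lifr was low (3.87 and 4.52 CPM; 0.22, adjusted p = 0.469), and Osmr and Tgfbr3 had 0 counts throughout.

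**Figure D4:**
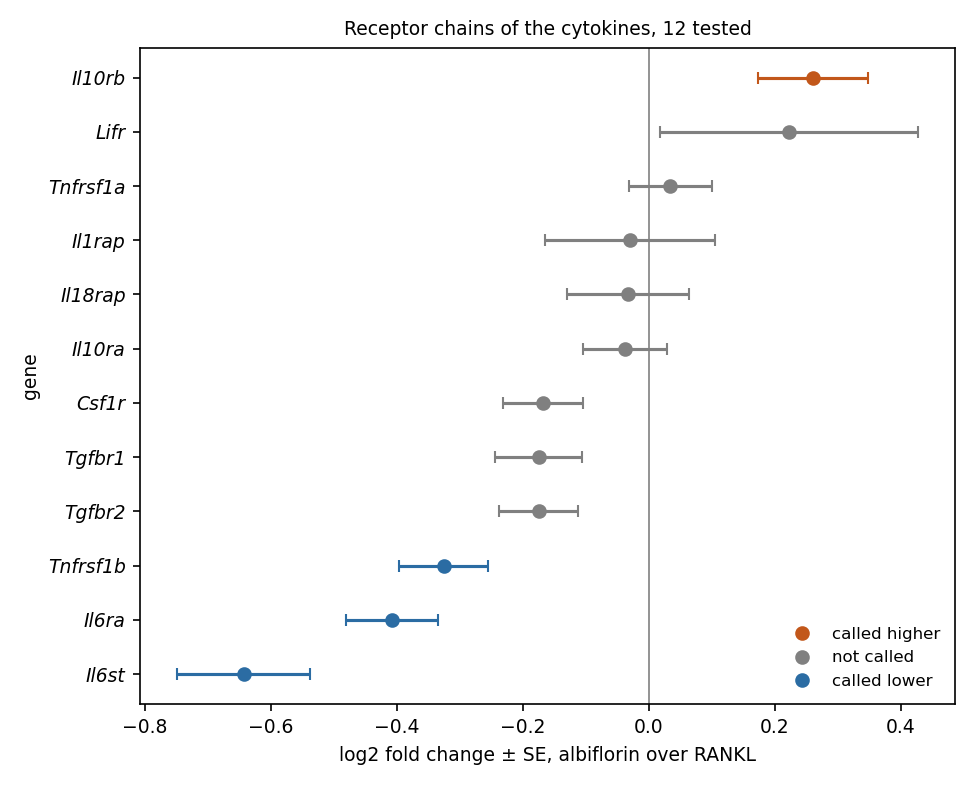
Log2 fold change ± SE (edgeR), albiflorin over RANKL, of the 12 tested receptor genes, ordered by value, with called genes in colour. Il6st, Il6ra and Tnfrsf1b lie below 0 and Il10rb above it; Csf1r, Tgfbr1 and Tgfbr2 lie near -0.17 without a call.

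Among genes that process or release these cytokines, Casp1 was higher and Furin lower. Of 21 genes 15 were tested, 1 higher and 1 lower (6.67% each, against 12.4% and 11.4% of all tested genes), with a median of -0.11. Casp1, the protease that matures IL-1beta and IL-18, went from 67.0, 76.5 and 74.8 CPM to 91.7, 108 and 90.7 CPM (0.41, SE 0.0777, edgeR adjusted p = 0.00180). All albiflorin libraries were above the RANKL libraries, but the call was lost with the listed-length (0.18, adjusted p = 0.0968) and the mRNA-length trend removed (0.21, 0.0714), as for its substrate Il18. Furin, the protease that cleaves the TGF-beta1 precursor, was lower (-0.22, adjusted p = 0.0241), a call held in 8 of 16 alternatives and lost without RANKL replicate 1 or 2 or albiflorin replicate 1 or 2 (edgeR adjusted p = 0.0541 to 0.126). Of further genes chosen after their values were seen, Adam17, which sheds TNF from the membrane, gave -0.17 on the log2 scale (adjusted p = 0.0611), the inflammasome sensor gene Nlrp3 gave -0.07 (0.485), and Pycard, the adaptor that links such sensors to caspase-1, had 1 to 14 counts per library.

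Other cytokine genes of these cells, where called, were higher. Of 44 in the list 18 were tested, 6 higher (33.3%, against 12.4% of all tested genes) and 0 lower, with a median of 0.27 (3 higher and 1 lower with the listed-length trend removed, 2 and 0 with the mRNA-length trend removed). Spp1 encodes osteopontin, a bone matrix protein and cytokine, and rose from 742 ± 30.8 to 1065 ± 71.8 CPM (0.52, SE 0.0670, edgeR adjusted p = 0.000258). Il15, a growth factor for lymphocytes, rose from 8.12 ± 0.607 to 13.98 ± 1.95 CPM (0.78, SE 0.136, adjusted p = 0.00108). Spp1 and Il15 were called in all 16 alternatives. Mif, for macrophage migration inhibitory factor (0.55, adjusted p = 0.000388), and Tnfsf9, for the 4-1BB ligand (0.35, adjusted p = 0.00847), were higher but not with either length trend removed (Mif 0.13 and 0.06, Tnfsf9 0.08 and 0.11). Tnfsf9 also lost its call without albiflorin replicate 1 (edgeR adjusted p = 0.0521). Ltb (0.32, adjusted p = 0.0289) and Il27 (0.84, adjusted p = 0.0363), named after their values were seen, complete the 6. Il27 rested on 20 to 51 reads per library. Without albiflorin replicate 1 only 3 genes of the list were higher, Spp1, Il15 and Mif, so Ltb and Il27 lost their calls. They were also not called with the mRNA-length trend removed, where only Spp1 and Il15 were higher. Of the list, 10 genes had 0 counts in all libraries, among them Il12a, Il12b, Ifnb1, Csf2 and Tnfsf11, the RANKL gene itself.

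Signalling genes below the receptors changed by small amounts in both directions, Socs3 excepted. Of 21 genes below the TNF and IL-1 receptors, all tested, 3 were higher (14.3%) and 4 lower (19.0%), against 12.4% and 11.4% of all tested genes. Traf1, an adaptor (0.35, adjusted p = 0.00711), and Birc2, a ubiquitin ligase of the TNF receptor complex (0.20, adjusted p = 0.0259), were higher. Traf3, an adaptor that restrains non-canonical NF-kB signalling (-0.30, adjusted p = 0.00550), and Map3k7, the kinase TAK1 (-0.24, adjusted p = 0.0278), were lower. Traf1 and Traf3 each kept the call in 15 of 16 alternatives. Birc2 lost it without albiflorin replicate 1 or any 1 RANKL library (edgeR adjusted p = 0.0519 to 0.186), and Map3k7 without RANKL replicate 1 or 2 or albiflorin replicate 1 or 2 (0.0561 to 0.145). Map3k8 (0.29, edgeR adjusted p = 0.0422) was also higher, and Tab3 (-0.29, 0.0402) and Tollip (-0.18, 0.0465) also lower. These genes were named after their values were seen. None of them kept its call without RANKL replicate 1 or 2 or albiflorin replicate 1, where only Traf1 was higher and only Traf3 lower. With the mRNA-length trend removed 0 genes of this list were lower.

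Below gp130 and the IL-10 receptor, 12 of 15 genes were tested, 1 higher and 1 lower (8.33% each, against 12.4% and 11.4% of all tested genes). Socs3, the feedback inhibitor of gp130 signalling, had 23.1, 22.9 and 25.8 CPM with RANKL and 38.5, 34.8 and 45.5 CPM with albiflorin, without overlap (0.73, SE 0.102, edgeR adjusted p = 0.000368). It was called in all 16 alternatives, so that gp130's mRNA was lower and that of its inhibitor higher in the same libraries. The kinase gene Jak1 was lower (-0.20, adjusted p = 0.0412), held in 7 of 16 alternatives and lost without RANKL replicate 1 or 2 or albiflorin replicate 1 or 2 (edgeR adjusted p = 0.0934 to 0.167). In the TGF-beta list 11 of 12 genes were tested, 1 higher and 1 lower (9.09% each, against the same shares of all tested genes). The SMAD repressor gene Ski was lower (-0.27, adjusted p = 0.00415) and the corepressor gene Tgif1 higher (0.28, adjusted p = 0.00933), neither with the mRNA-length trend removed. Tgif1 was also not called without RANKL replicate 1 (edgeR adjusted p = 0.0503) or albiflorin replicate 1 (0.0527).

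Of the called genes in all 7 lists, the largest log2 fold change was that of a gene whose product binds AU-rich elements such as the Tnf run printed above. Zfp36 encodes tristetraprolin, which targets Tnf mRNA and others for decay. It had 23.9, 29.5 and 37.3 CPM in RANKL libraries and 90.0, 78.2 and 117 CPM in albiflorin libraries. The groups were far apart (30.2 ± 6.76 and 94.97 ± 19.8 CPM; log2 fold change 1.65, SE 0.142, edgeR adjusted p = 8.46e-06), and the call held in all 16 alternatives. The related Zfp36l1 rose as well (13.2 ± 1.41 to 19.5 ± 3.05 CPM; 0.55, SE 0.126, adjusted p = 0.00548), while Zfp36l2, named after its values were seen, was not called (-0.11, adjusted p = 0.329). Of the 10 genes of AU-rich decay, all tested, 3 were higher (30%) and 1 lower (10%), against 12.4% and 11.4% of all tested genes. With the listed-length trend removed the counts were 6 and 0, and with the mRNA-length one 5 and 0. Hnrnpd, for the AU-binding protein AUF1, was higher (0.22, adjusted p = 0.0269). Rc3h1, for Roquin-1, which binds stem-loops of the Tnf mRNA, was lower (-0.20, adjusted p = 0.0253). Hnrnpd lost its call without RANKL replicate 1 or 2 or albiflorin replicate 1 or 2 (edgeR adjusted p = 0.0876 to 0.107), and Rc3h1 without RANKL replicate 2 or 3 or albiflorin replicate 1 or 2 (0.0635 to 0.0912). Rc3h1 was not called with either length trend removed, and turned to 0.11 (adjusted p = 0.192) with the mRNA-length one. Tnf mRNA and the mRNA of its decay factor were thus higher in the same 3 libraries; mRNA decay itself was not measured.

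**Figure D5:**
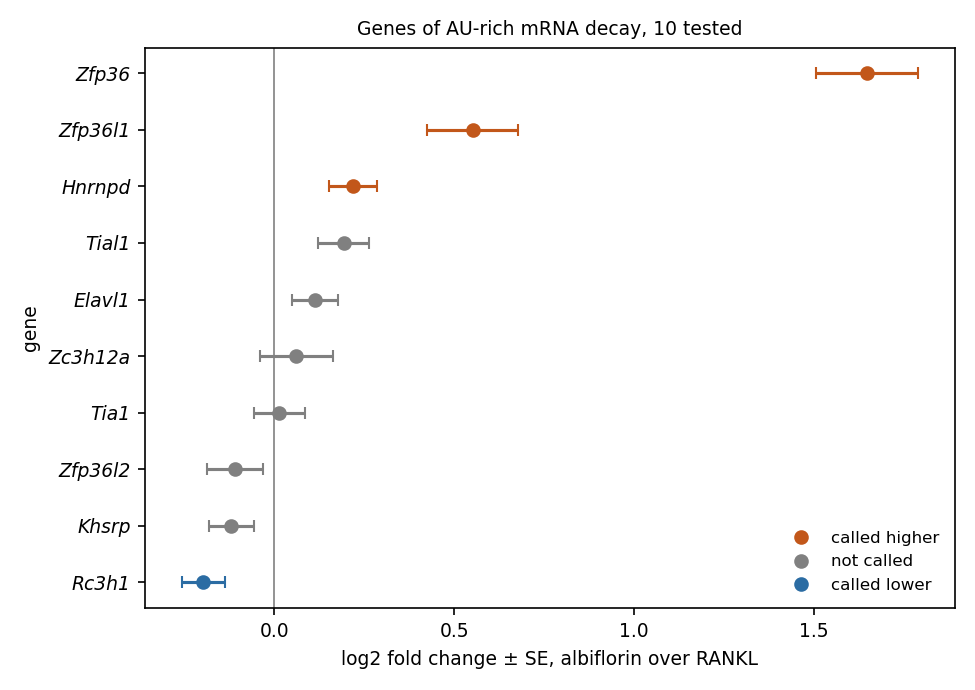
Log2 fold change ± SE (edgeR), albiflorin over RANKL, of the 10 genes of AU-rich mRNA decay, ordered by value, with called genes in colour. Zfp36 (1.65) stands apart from Zfp36l1 (0.55) and Hnrnpd (0.22), and Rc3h1 (-0.20) is the gene called lower.

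Over the 7 lists outside the cytokine genes themselves, 16 of 99 tested genes (16.2%) were called higher and 11 (11.1%) lower, shares near the 12.4% and 11.4% of all tested genes. The counts moved with the setting. They were 15 higher and 7 lower with the listed-length trend removed, and 11 and 3 with the mRNA-length trend removed. Another test and unit, limma on log2(FPKM + 1), gave 12 and 5 (11 and 5 with a pseudocount of 0.1).

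The genes around Tnf moved in both directions. Within 50000 bases, a window chosen after the files were seen, Tnf had 8 named neighbours. Lta, the adjacent lymphotoxin gene 1158 bases away, had 36 counts in all and was not tested. Ltb, for lymphotoxin beta, 3060 bases away, was higher as given above, and so was Nfkbil1 (0.29, edgeR adjusted p = 0.0489). Prrc2a, 42480 bases away, was lower (-0.48, adjusted p = 0.000434). Lst1 (0.14, edgeR adjusted p = 0.731), Aif1 (0.33, 0.0731) and Atp6v1g2 (-0.65, 0.0803), named after their values were seen, were not called. Of the 6 tested neighbours of Tnf, 2 were higher and 1 lower (50%, against 23.8% of all tested genes). Those up to Nfkbil1, 30623 bases away, had positive changes, and the more distant Prrc2a and Atp6v1g2 negative ones. Osm and Lif are themselves neighbours, 17706 bases apart. Over all 10 loci 26 neighbours were tested, those shared by Osm and Lif being counted at each; 5 were higher and 2 lower, 26.9% in all and near the 23.8% of all tested genes.

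Among 8767 named genes with a mean of at least 10 CPM, those whose log2 CPM followed Tnf most closely over the 6 libraries were Nup37, a nuclear pore gene (Pearson r = 0.997), the interferon regulatory factor gene Irf2 (0.996), Gm12184 (0.995), Ece2 (0.994) and the decapping gene Dxo (0.993). With group means removed their r was 0.971 to 0.984, which the choice by r over all libraries largely fixes. Of these 5, Nup37 (0.30, edgeR adjusted p = 0.0116) and Dxo (0.40, 0.0166) were called higher with albiflorin. Among the cytokine genes r with Tnf was 0.755 for Osm, 0.727 for Il18, 0.229 for Il1rn, 0.160 for Csf1 and -0.416 for Tgfb1. The 6 libraries share the 2 treatments and their depth, and these values are a description only.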

How the data were processed

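RNA of 3 RANKL and 3 albiflorin libraries of RAW264.7 cells was sequenced. Raw counts per gene were deposited by the authors as whole numbers. The FPKM values deposited by the authors are close to counts per listed gene length and per library total. The total they imply differed from the library's summed counts by -0.95% (albiflorin replicate 2) to 1.65% (RANKL replicate 2). The submitters' processing notes name fastp, HISAT2 2.2.1, CASAVA 1.8, DESeq2 1.42.0 and featureCounts 2.0.6-p3. Gene identifiers carry the Ensembl prefix of the C57BL/6NJ strain; no source used here names the build, so sequences come from GRCm38 tables and its coordinates are kept apart from theirs.

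Counts were tested with edgeR 4.0.16 (R 4.3.3; filterByExpr, TMM, quasi-likelihood F-test, two-sided, Benjamini-Hochberg adjusted p under 0.05 over all 13158 tested genes), after a test on simulated counts. CPM used TMM-scaled library sizes. Intervals and floors cover counting error only. Alternatives were other scaling, tests (DESeq2 1.42.0, limma 3.58.1), filters, units, a block, single libraries left out, and removal of length trends (lowess, span 0.3). The mRNA-length version, chosen after seeing the data, uses GENCODE M21, with a length for 82.3% of tested genes.

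The 10 genes and all 13 lists were chosen with earlier results of these data known. Named were all 10 cytokine genes, all their receptors, up to 4 called genes per list with the smallest p, and the 5 genes most like Tnf; others are marked. Of 192 list symbols 188 matched; 1256 unnamed entries took a symbol from their protein description.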

Additional observations from a re-analysis of the deposited data

How the results depend on the processing

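Tnf stayed called higher, and Il6st, Il6ra, Tnfrsf1b, Zfp36, Zfp36l1, Socs3, Spp1 and Il15 kept their calls, under all 16 alternatives; the count of cytokine genes called lower was 0 in each. Cytokine genes called higher fell from 2 to 1, Tnf, with DESeq2, limma-voom, limma on log2(FPKM + 1) or log2(FPKM + 0.1), and either length trend removed (Il18 -0.0096 with the listed-length trend removed), and numbered 1 to 2 without single libraries. Over all genes, 945 were higher once the listed-length trend was taken out; for the mRNA-length trend the counts were 637 (higher) and 719 (lower), this alternative having been chosen after seeing the data; 901 and 909 were lower with limma on log2 FPKM with pseudocounts of 1 and 0.1. In the 7 lists, 5 and 5 were lower on those FPKM scales and 7 and 3 with the length trends removed. Without single libraries 984 to 1753 genes were higher and 914 to 1644 lower, and in the lists 8 to 15 and 5 to 18; leaving out albiflorin replicate 3 gave the highest and albiflorin replicate 1 or RANKL replicate 2 the lowest of these values. Small uncalled changes reversed: without single libraries Csf1 ranged from -0.040 to 0.39, Tnfrsf1a from -0.016 to 0.062, Il1rap from -0.19 to 0.083, Il10ra from -0.10 to 0.0044 and Il18rap from -0.13 to 0.023. With the listed-length and mRNA-length trends removed, Tnfrsf1a was -0.065 and -0.057, Il1rap 0.16 and 0.072, Il18rap 0.075 and 0.091, and with the latter Il10ra 0.00089 and Rc3h1, called in the edgeR fit, 0.11. The cause of these shifts was not tested. The replicate numbers did not pair the libraries (correlations of deviations 0.022, -0.043 and -0.066); with a replicate block 1358 genes were higher and 1214 lower, 2 cytokine genes higher and 0 lower, and 12 genes of the lists higher and 7 lower. Depth limits Il1b, Lif, Il10 and Il6, at 0 to 7 reads per library, and Csf1, to which DESeq2 gave no adjusted p.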
